A study of Mus musculus with 12 samples.

Results

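The genes of 9 mitochondrial enzymes that burn fatty acids and ketone bodies (Cpt1a, Cpt2, Acadl, Acadm, Acadvl, Hadha, Hadhb, Acaa2 and Oxct1) were followed in the mouse hippocampus. They were set by name and are 9 of the 22180 genes that a probe set of the array measured under a single gene symbol. Each of the 9 was represented by exactly 1 probe set, called a transcript cluster on this array. Mice of 2 genotypes were compared, wild-type mice (WT) and App NL-F/NL-F knock-in mice (App). In the knock-in mice the Aβ stretch of the mouse App gene is humanized and bears the Swedish and the Iberian mutation, so that the mutant protein is made under the gene's own promoter. All mice were male, entered a regular diet (RD) or a high-fat diet (HFD) at 6 months of age, stayed on it for 12 months, and were killed at 18 months. The groups are named by genotype and diet, from WT RD to App HFD. RNA from the hippocampus of 3 mice per group was hybridised to arrays of the type Affymetrix Mouse Gene 2.0 ST, 1 array for each of the 12 mice, so that replicates are separate mice. The deposited value is a log2 expression value per cluster, on which a difference of 1 is a doubling.

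A fatty acid is burned in steps that these genes divide between them. Long-chain fatty acids, once joined to coenzyme A, are handed to carnitine by CPT1 at the outer mitochondrial membrane and handed back to coenzyme A inside by CPT2. Acyl-CoA dehydrogenases of different chain length preference open each round of beta-oxidation, the trifunctional protein of HADHA and HADHB carries out the later steps for long chains, and the thiolase ACAA2 cuts off acetyl-CoA. OXCT1 (SCOT) activates acetoacetate and so lets tissues outside the liver use ketone bodies. In brain, neurons are known for burning glucose and ketone bodies, while much of the fatty acid oxidation is attributed to astrocytes.

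None of the 9 genes passed limma's test for a difference between groups in any of 8 comparisons. These were 5 comparisons of groups, the genotype effect (App minus WT, averaged over both diets), the diet effect (HFD minus RD, averaged over both genotypes) and their interaction (the diet effect in App mice minus that in WT mice). In each comparison 0 of the 9 genes had an adjusted p under 0.05, against 1 of all 41345 clusters (0.00242%) in the genotype effect and 0 (0%) in each of the other 7. Nor did any of the 9 reach an unadjusted p under 0.05. Over all clusters that share was 5.22% for HFD against RD in WT mice, 4.62% for HFD against RD in App mice, 6.18% for App against WT mice on the RD and 5.31% for the same comparison on the HFD. It was 5.19% for App HFD against WT RD mice, 6.47% for the genotype effect, 4.97% for the diet effect and 4.97% for the interaction. The smallest unadjusted p among the 72 combinations of gene and comparison was 0.110 (Acadvl, diet effect), and the smallest adjusted p was 0.872 (Acadl, genotype effect). An F test over the 4 groups gave an unadjusted p between 0.344 (Cpt2) and 0.991 (Acaa2), and 5.69% of all clusters had one under 0.05.

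The differences of the 9 genes lay between -0.22 and 0.20 on the log2 scale. Leaving aside the interaction, whose intervals are wider, the 95% intervals ran at most from -0.56 to 0.52, which is from 0.677-fold to 1.43-fold. Both of these outer bounds belonged to Hadhb. With 3 mice per group, differences within the bounds were not resolved. The median difference of the 9 genes was 0.012 for the diet effect, against -0.00094 over all clusters, and 0.023 for the genotype effect, against -0.0043. When each array was left out in turn, the median ran from -0.040 (without the first App RD mouse) to 0.035 (without the third App RD mouse) for the diet effect. It was below 0 without the third WT RD, the third WT HFD, the first App RD or the first App HFD mouse. For the genotype effect it ran from 0.011 (without the third App RD mouse) to 0.052 (without the first). In hippocampus-wide RNA such values cannot tell a change in the number of cells of a type from a change in RNA per cell.

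**Figure D1:**
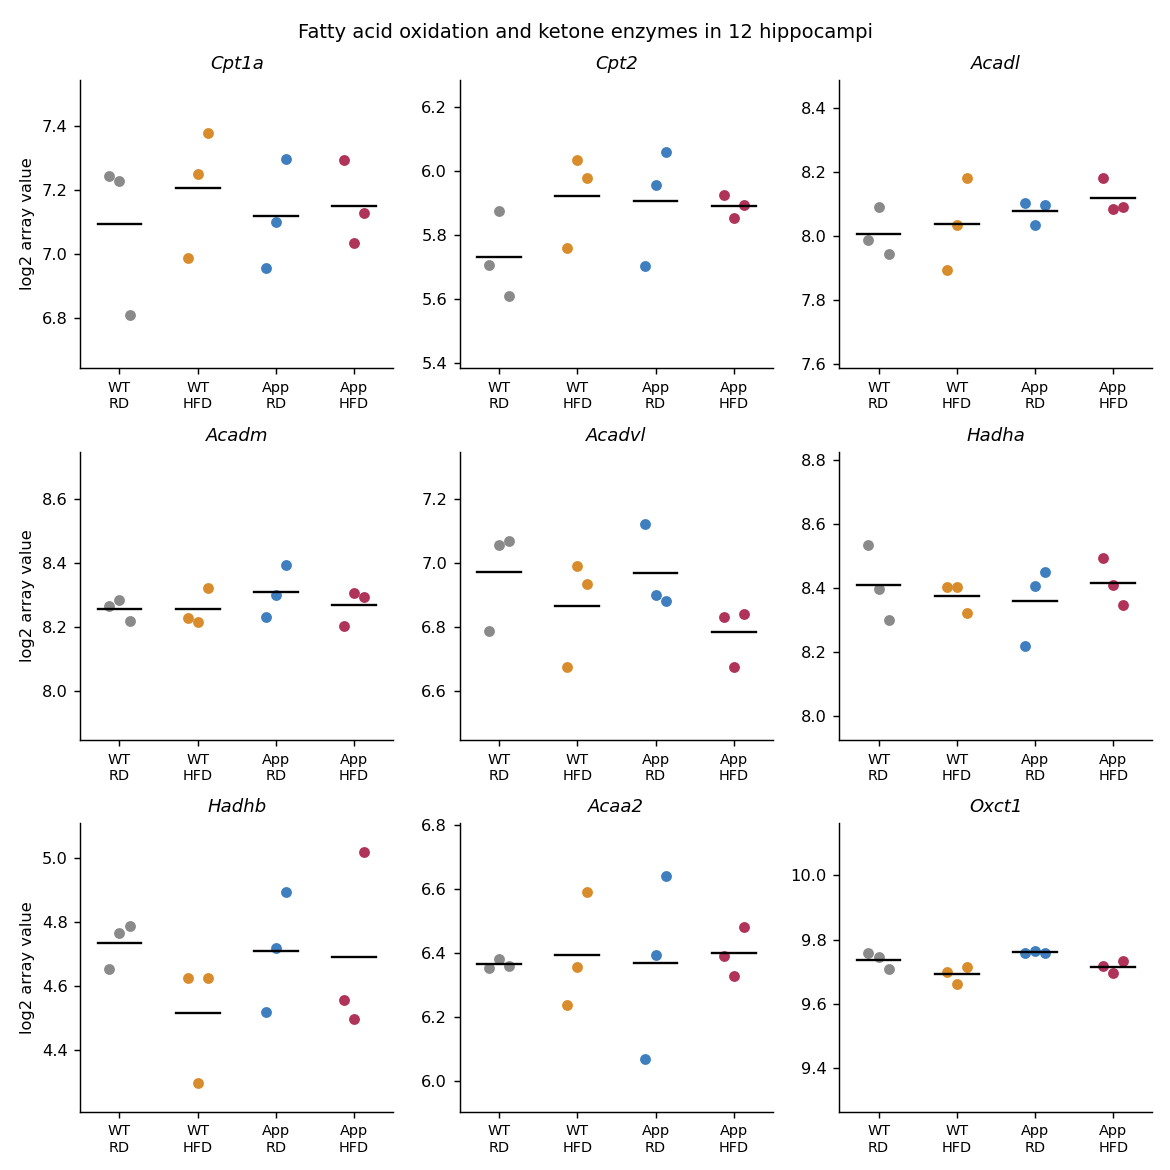
Log2 array value (vertical axis) of each of the 9 genes in every mouse, by group (horizontal axis); points are mice, black lines group means, and every panel spans 0.9 log2 units. Oxct1 spans only 0.10 over the 12 mice and Hadhb 0.72, and in no panel do the 4 groups separate.

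Any 2 arrays correlated at r = 0.982 to 0.988 over all clusters, and the share of clusters above an intensity of 100 was 23.6% to 24.3%. All 7 neuronal markers and 6 of 7 markers of dentate granule and CA cells were above it on average, as were 7 of 8 astrocyte markers. The summed intensity of the 8 astrocyte markers was 6749 to 6894 in WT RD, 6688 to 7066 in WT HFD, 7008.5 to 7156 in App RD and 7058 to 7204 in App HFD mice. Of these markers, 7 had a genotype effect above 0 and 1 below (median 0.097), with 1 at an unadjusted p under 0.05 and 0 at an adjusted one. The summed intensity of 6 choroid plexus markers, a tissue that borders the hippocampus, ran from 5040 to 9028 in WT RD mice, from 860 to 11025 in WT HFD mice, from 800.4 to 10840 in App RD mice and from 683 to 9908 in App HFD mice. All 6 of these markers were lower in App HFD than in WT HFD mice (median difference -0.65), than in App RD mice (-0.45) and than in WT RD mice (-0.57), and their interaction was below 0 (median -0.55), with 0 of the 6 at an unadjusted p under 0.05 in any of these. The summed intensity of 7 microglial markers, 6 of them above an intensity of 100, was 1283 to 1396 in WT RD, 1486 to 1506 in WT HFD, 1517 to 1638 in App RD and 1562 to 1788 in App HFD mice. All 7 had a genotype effect above 0 (median 0.14), 4 of them at an unadjusted p under 0.05 and 0 at an adjusted one. For 8 markers of pericytes and smooth muscle, 4 of them above an intensity of 100, the sum was 1173 to 1267 in WT RD, 1306 to 1536 in WT HFD, 1237 to 1425 in App RD and 1318 to 1539 in App HFD mice. Of these, 7 had a diet effect above 0 (median of the 8 0.24), with 4 at an unadjusted p under 0.05 and 0 at an adjusted one. The part of these cells in the values of the 9 genes was not tested. Of the 9 genes, 6 (Cpt1a, Acadl, Acadm, Acadvl, Hadha and Oxct1) were above an intensity of 100 on all 12 arrays, and Cpt2, Acaa2 and Hadhb were below it on all 12. Hadhb ranked between the 39.9th and 53.7th percentile of all clusters of its array, so its values rest on a signal in the middle of all clusters, expressed or not.

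Cpt1a encodes the liver-type carnitine palmitoyltransferase 1, the entry and main control point of mitochondrial fatty acid oxidation. Its log2 values were 7.24, 7.23 and 6.81 in WT RD mice, 6.99, 7.25 and 7.38 in WT HFD mice, 6.96, 7.10 and 7.30 in App RD mice, and 7.29, 7.03 and 7.13 in App HFD mice. The groups overlapped throughout, and the third WT RD mouse was the lowest of all 12. The diet effect was 0.072 (SE 0.11, 95% interval -0.16 to 0.31, limma adjusted p = 1.0) and the genotype effect -0.015 (SE 0.11, 95% interval -0.25 to 0.22, limma adjusted p = 0.992). Within groups Cpt1a varied with an SD of 0.19, and 88.8% of the clusters above an intensity of 100 varied less.

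Cpt2 encodes the inner membrane partner of the shuttle. It read 5.71, 5.87 and 5.61 in WT RD mice, 5.76, 6.03 and 5.98 in WT HFD mice, 5.70, 5.96 and 6.06 in App RD mice and 5.92, 5.85 and 5.89 in App HFD mice. WT RD mice had the lowest mean, 5.73 ± 0.13 (SD, n = 3), against 5.92 ± 0.14 in WT HFD mice, 5.91 ± 0.18 in App RD mice and 5.89 ± 0.035 in App HFD mice, but each of these groups overlapped with it. HFD minus RD was 0.19 (SE 0.11, limma adjusted p = 0.980) in WT mice and -0.017 (SE 0.11, limma adjusted p = 0.999) in App mice. The difference between these 2 diet effects, the interaction, was -0.21 (95% interval -0.57 to 0.15, limma adjusted p = 1.0). In 3 of 3 pairs of WT mice with the same replicate number Cpt2 was higher on the HFD (0.053, 0.16 and 0.37). Of all clusters 26.6% went one way in the 3 pairs. That pairing was read from the data and not from the labels. Markers of endothelium moved with Cpt2 over the 12 mice (Pearson r = 0.77, permutation p = 0.0022, adjusted over 90 gene and marker list pairs 0.101; Spearman rho = 0.79, permutation p = 0.0032, adjusted 0.144; r = 0.81 without the 2 mice farthest from the median of Cpt2). The summed intensity of the 7 endothelial markers, 4 of them above an intensity of 100, was 634 to 786 in WT RD mice, 697 to 939 in WT HFD mice, 777 to 801 in App RD mice and 769 to 808 in App HFD mice. Cpt2 correlated with the pericyte and smooth muscle markers at r = 0.68 (permutation p = 0.016, adjusted 0.247, rho = 0.61, permutation p = 0.039, adjusted 0.320; r = 0.50 without the same 2 mice). The part of vascular content in the values of Cpt2 was not tested.

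The promoters of Cpt1a and Cpt2 are shown because these genes moved together more closely than any other pair of the 9. Each window holds the 250 bases before and the 50 bases after the start of transcription, 5′ to 3′ on the gene's strand, from RefSeq on GRCm38.p6. Cpt1a lies at chr19:3323051-3323350 on the plus strand and Cpt2 at chr4:107923540-107923839 on the minus strand. Capitals mark the GC box (GGGCGG, or CCGCCC on the other strand) and the nuclear receptor half-site (AGGTCA, or TGACCT on the other strand).
Cpt1a: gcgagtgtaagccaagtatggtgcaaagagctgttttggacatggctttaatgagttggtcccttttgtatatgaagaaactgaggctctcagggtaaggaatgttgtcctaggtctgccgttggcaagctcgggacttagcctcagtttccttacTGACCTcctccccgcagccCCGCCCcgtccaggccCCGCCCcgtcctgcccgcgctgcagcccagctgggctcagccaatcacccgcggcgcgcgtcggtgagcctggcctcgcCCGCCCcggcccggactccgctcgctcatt
Cpt2: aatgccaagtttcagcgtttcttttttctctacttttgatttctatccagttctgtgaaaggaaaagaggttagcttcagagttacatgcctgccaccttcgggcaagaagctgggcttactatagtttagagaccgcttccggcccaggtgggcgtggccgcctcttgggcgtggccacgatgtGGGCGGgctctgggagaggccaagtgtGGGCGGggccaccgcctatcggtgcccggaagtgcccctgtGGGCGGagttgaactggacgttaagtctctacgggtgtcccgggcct
Both windows hold 3 GC boxes, a motif found on either strand in 35.7% of all 32851 promoter windows of the table. Cpt1a also holds 1 half-site, which 16.3% of windows hold. Neither holds the PPAR direct repeat (AGGTCANAGGTCA), which has the half-site in it and is found in 0.0396% of windows.

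None of the 3 acyl-CoA dehydrogenases passed the test. Acadl encodes the long-chain enzyme, which read 7.99, 8.09 and 7.94 in WT RD mice, 7.89, 8.03 and 8.18 in WT HFD mice, 8.10, 8.04 and 8.10 in App RD mice, and 8.18, 8.08 and 8.09 in App HFD mice. Its genotype effect was 0.077 (SE 0.061, 95% interval -0.057 to 0.21, limma adjusted p = 0.872), with overlap in both diets. Acadl correlated with the endothelial markers at r = 0.76 (permutation p = 0.0046, adjusted over the 90 pairs 0.137, rho = 0.63, permutation p = 0.032, adjusted 0.320), at r = 0.69 without the 2 mice farthest from its median and at r = 0.80 with group means subtracted. The part of endothelial content in the values of Acadl was not tested. Acadm encodes the medium-chain enzyme, and its 12 values lay between 8.20 and 8.39, with group means of 8.26 ± 0.033 in WT RD, 8.25 ± 0.059 in WT HFD, 8.31 ± 0.082 in App RD and 8.27 ± 0.057 (SD, n = 3 each) in App HFD mice. The HFD moved Acadm by -0.00084 in WT mice (95% interval -0.16 to 0.16) and by -0.040 in App mice (95% interval -0.20 to 0.12).

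Acadvl encodes the very long-chain dehydrogenase of the inner membrane, which takes the first step for the fatty acids that the carnitine shuttle delivers. It read 6.79, 7.06 and 7.07 in WT RD mice, 6.67, 6.99 and 6.93 in WT HFD mice, 7.12, 6.90 and 6.88 in App RD mice and 6.83, 6.67 and 6.84 in App HFD mice. All 3 App HFD mice lay below all 3 App RD mice, while the WT groups overlapped. HFD minus RD was -0.18 in App mice (SE 0.12, 95% interval -0.44 to 0.076, limma adjusted p = 0.999; exact permutation p = 0.1, 2-sided, the smallest that 3 against 3 mice allow). In WT mice it was -0.105 (SE 0.12, 95% interval -0.36 to 0.15, limma adjusted p = 0.997), and the HFD mouse was lower in 3 of 3 pairs of WT mice with the same replicate number (-0.11, -0.068 and -0.13). Of the 9 genes 3 (Cpt2, Acadvl and Hadhb) went one way in the 3 pairs, and of all clusters 26.6% did. The diet effect of -0.14 (SE 0.083, 95% interval -0.33 to 0.039) had a limma adjusted p of 1.0 and an exact permutation p within genotypes of 0.115. Acadvl ran against oligodendrocyte markers over the 12 mice (r = -0.69, permutation p = 0.014, adjusted 0.247; rho = -0.62, permutation p = 0.035, adjusted 0.320; r = -0.59 without the 2 mice farthest from its median). The summed intensity of those 6 markers, 5 of them above an intensity of 100, was 2733 to 2920 in WT RD mice and 2849 to 3016 in WT HFD mice, 2586 to 3336 in App RD mice and 3286 to 3495 in App HFD mice, and its part in the values of Acadvl was not tested. With the markers of dentate granule and CA cells, whose sum was 1901 to 2144 in WT mice and 1776 to 2265 in App mice, Acadvl correlated at r = -0.60 (permutation p = 0.037, adjusted 0.367, rho = -0.44, permutation p = 0.155, adjusted 0.607; r = -0.43 without the same 2 mice), and their part was not tested either.

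Hadha and Hadhb encode the alpha and beta subunit of the mitochondrial trifunctional protein, and their genes lie head to head. On GRCm38.p6 their start sites are 273 bases apart on chromosome 5 and the promoter windows share 228 bases, chr5:30155003-30155230. The start site of Hadha, at chr5:30154980, lies outside the window of Hadhb. The window of Hadhb, chr5:30155003-30155302 on the plus strand, is printed because it holds the shared bases, with GC boxes in capitals.
Hadhb: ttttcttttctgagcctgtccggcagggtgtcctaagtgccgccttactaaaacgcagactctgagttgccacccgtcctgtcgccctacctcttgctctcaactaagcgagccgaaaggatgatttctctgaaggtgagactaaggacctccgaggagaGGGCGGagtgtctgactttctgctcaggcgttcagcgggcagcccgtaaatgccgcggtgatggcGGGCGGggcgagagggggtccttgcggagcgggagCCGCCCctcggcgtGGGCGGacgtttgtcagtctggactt
It holds 4 GC boxes, of which the first also lies in the window of Hadha. Over the 12 mice Hadha and Hadhb correlated at r = -0.030 (permutation p = 0.930, adjusted over 36 pairs 0.965) and rho = -0.10 (permutation p = 0.756, adjusted 0.957). Without the 2 mice farthest from the median of Hadha r was -0.27, and with group means subtracted it was -0.092. Hadhb was below an intensity of 100 on all 12 arrays, so these values do not bear on whether the pair moved together.

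Hadha read 8.53, 8.40 and 8.30 in WT RD mice, 8.40, 8.40 and 8.32 in WT HFD mice, 8.22, 8.40 and 8.45 in App RD mice and 8.49, 8.41 and 8.35 in App HFD mice. All groups overlapped, with a diet effect of 0.012 (95% interval -0.13 to 0.15) and a genotype effect of -0.0054 (95% interval -0.15 to 0.14). Hadha correlated with oligodendrocyte markers at r = 0.60 (permutation p = 0.037, adjusted 0.367, rho = 0.63, permutation p = 0.032, adjusted 0.320; r = 0.61 without the 2 mice farthest from its median), and their part in its values was not tested. Hadhb read 4.65, 4.77 and 4.79 in WT RD mice, 4.62, 4.30 and 4.62 in WT HFD mice, 4.52, 4.72 and 4.89 in App RD mice and 4.56, 4.50 and 5.02 in App HFD mice. The WT HFD mice all lay below the WT RD mice, whereas the App groups overlapped. HFD minus RD for Hadhb was -0.22 in WT mice (SE 0.15, 95% interval -0.56 to 0.12, limma adjusted p = 0.994) and -0.019 in App mice (SE 0.15, 95% interval -0.36 to 0.32, limma adjusted p = 0.999). Their difference was 0.20 (95% interval -0.28 to 0.68, limma adjusted p = 1.0).

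Acaa2 encodes the mitochondrial 3-ketoacyl-CoA thiolase. It read 6.35, 6.38 and 6.36 in WT RD mice, 6.24, 6.36 and 6.59 in WT HFD mice, 6.07, 6.39 and 6.6403 in App RD mice and 6.39, 6.33 and 6.48 in App HFD mice. The lowest and the highest of all 12 mice were thus both App RD mice, and only 1.22% of the variation of Acaa2 lay between groups. Its 4 group means were within 0.035 of each other. Ependymal markers, all 4 measured ones with a mean below an intensity of 100, moved with Acaa2 over the 12 mice (r = 0.86, permutation p = 0.00094, adjusted over the 90 pairs 0.085; rho = 0.62, permutation p = 0.037, adjusted 0.320). That relation rested on the first and the third App RD mouse, without which r was 0.44. The summed ependymal intensity was 151 to 236 in App RD mice and 193 to 209 over the other 3 groups, and its part in the values of Acaa2 was not tested.

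Oxct1, which encodes the enzyme that admits ketone bodies to oxidation, was the steadiest of the 9. It read 9.76, 9.74 and 9.71 in WT RD mice, 9.70, 9.66 and 9.72 in WT HFD mice, 9.76, 9.76 and 9.76 in App RD mice, and 9.72, 9.70 and 9.73 in App HFD mice. The App HFD mice all lay below the App RD mice, while in WT mice the highest HFD value passed the lowest RD value. Its SD within groups was 0.021, and only 0.0507% of the 9858 clusters above an intensity of 100 varied less. The diet effect was -0.045, a change of -3.08% (SE 0.042, 95% interval -0.14 to 0.049, -9.21% to 3.46%), and it was alike in WT mice (-0.045, SE 0.060) and in App mice (-0.045, SE 0.060), with an interaction of 0.00047 (95% interval -0.19 to 0.19).

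The size of that difference against the spread depended on which spread was used. Limma, which raises a very small SD towards that of other clusters, gave the diet effect of Oxct1 an unadjusted p of 0.312 and an adjusted p of 1.0. An exact permutation test within genotypes, which uses only the gene's own 12 values, gave p = 0.010 (2-sided, 400 assignments, smallest possible 0.005). That p was as small in 1.19% of all clusters, it was 1 of 18 such tests made on the 9 genes, and adjusted over all clusters it was 0.844, so it did not pass. The genotype effect of Oxct1 was 0.023 (SE 0.042, exact permutation p = 0.08), and under quantile normalization of the arrays the part of it measured on the HFD changed from 0.023 to -0.014.

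The window of Oxct1, shown because this gene had the smallest exact p of the 9, has none of the motifs searched and lies at chr15:4026178-4026477 on the plus strand.
Oxct1: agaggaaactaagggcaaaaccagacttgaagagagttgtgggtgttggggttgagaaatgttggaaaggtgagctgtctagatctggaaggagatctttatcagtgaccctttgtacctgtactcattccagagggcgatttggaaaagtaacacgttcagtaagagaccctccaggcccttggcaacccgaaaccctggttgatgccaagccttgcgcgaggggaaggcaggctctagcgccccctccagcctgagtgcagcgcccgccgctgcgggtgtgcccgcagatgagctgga
Over the 8 of 9 genes with a window in the table, the GC box was found in 5 (Acadl, Cpt1a, Cpt2, Hadha and Hadhb) and the half-site in 3 (Acadm, Acadvl and Cpt1a). The PPAR direct repeat, the ERR half-site TCAAGGTCA (0.423% of windows), the NRF1 site (4.6%), the CRE TGACGTCA (1.79%) and the E-box CACGTG (7.15%) were in 0 of the 8, searched on both strands. The half-site is contained in the direct repeat and in the ERR half-site. A match or its absence describes these letters in this window only.

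Counting groups that did not overlap, 1 of the 9 genes lay lower in WT HFD than in WT RD mice (Hadhb), beside 5.03% of all clusters lower and 10.3% in either direction. In App mice 2 of the 9 lay lower on the HFD (Acadvl and Oxct1), beside 4.64% of all clusters lower and 9.62% in either direction. In App against WT mice the count was 0 on the RD and 0 on the HFD, where 10.9% and 11.6% of all clusters separated, and for App HFD against WT RD mice it was 0, beside 10.5%. Over both genotypes together, 0 of the 9 separated all HFD-fed from all RD-fed mice, beside 0.276% of all clusters, and 0 separated the genotypes over both diets, beside 0.503%. The 5 comparisons share groups and are not independent of each other.

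**Figure D2:**
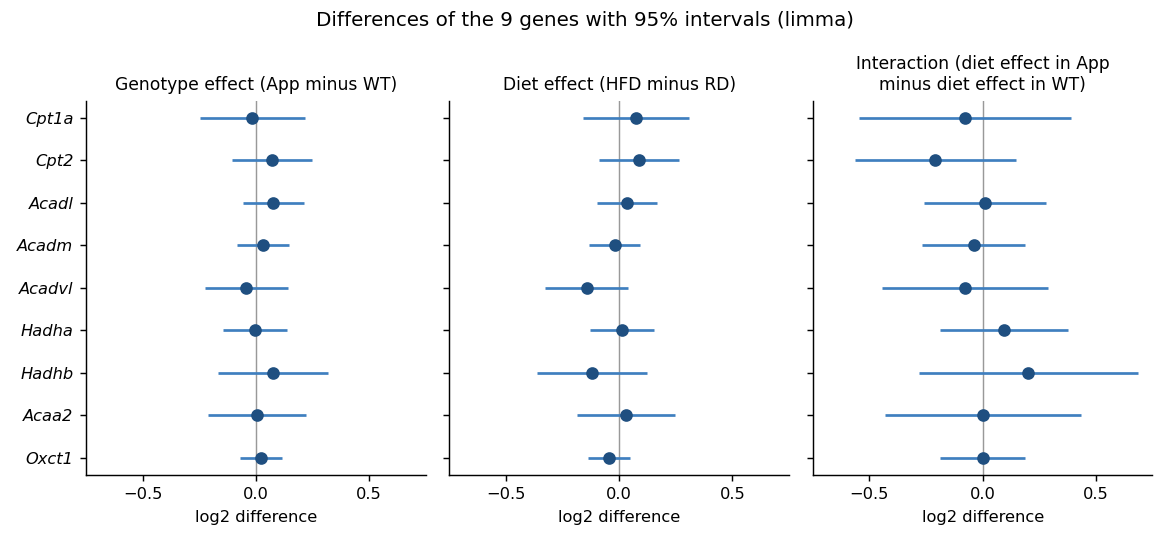
Log2 difference (horizontal axis) of each of the 9 genes (vertical axis) for the genotype effect, the diet effect and the interaction, with points for limma estimates from 12 mice and lines for 95% intervals. Every interval crosses 0; Oxct1 has the narrowest and Hadhb and Cpt1a have the widest.

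The 9 genes varied together only in part. Of the 36 pairs, 25 correlated above 0 over the 12 mice, the median r was 0.19, and it was 0.32 after group means were subtracted. Pairs of clusters above an intensity of 100 had a median r of 0.015 (quartiles -0.22 and 0.25), and 25103574 of these 48585153 pairs were above 0. Cpt2, Acaa2 and Hadhb were below that intensity, so this background is not matched to the pairs that hold them. Of the 36 pairs of the 9 genes, 6 had an unadjusted permutation p of r under 0.05 and 0 passed adjustment over the 36. The share of background pairs at such a p is not given here. All values of a mouse share 1 RNA and 1 array.

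The closest pair was the shuttle itself, Cpt1a and Cpt2, at r = 0.75 (permutation p = 0.0056, adjusted 0.203) and rho = 0.80 (permutation p = 0.0029, adjusted 0.104). With group means subtracted r was 0.81, and without the third WT RD and the first App RD mouse it was 0.48, so that part of the relation rested on those mice. An r at least as high was found in 0.484% of pairs of clusters above an intensity of 100. Cpt2 was below that intensity on all 12 arrays, and the pair is the highest of 36. That share is therefore not matched to it. Acaa2 was joined to Acadm (r = 0.70, permutation p = 0.013, adjusted 0.222; rho = 0.50, permutation p = 0.105, adjusted 0.521; r = 0.64 without the 2 mice farthest from the median of Acadm), to Cpt2 (r = 0.65, permutation p = 0.020, adjusted 0.222; rho = 0.71, permutation p = 0.012, adjusted 0.208; r = 0.66 without 2 mice) and to Cpt1a (r = 0.64, permutation p = 0.025, adjusted 0.222; rho = 0.66, permutation p = 0.024, adjusted 0.213; r = 0.68 without 2 mice). Cpt1a and Acadl correlated at r = 0.61 (permutation p = 0.033, adjusted 0.237; rho = 0.52, permutation p = 0.083, adjusted 0.497; r = 0.67 without 2 mice). Acadvl stood against Hadha (r = -0.60, permutation p = 0.039, adjusted 0.237; rho = -0.67, permutation p = 0.020, adjusted 0.213; r = -0.51 without the 2 mice farthest from the median of Acadvl).

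Cpt1a also moved with choroid plexus markers (r = 0.73, permutation p = 0.0074, adjusted over the 90 pairs 0.166; rho = 0.82, permutation p = 0.0020, adjusted 0.144). Without the 2 mice farthest from the median of Cpt1a r was 0.82. Cpt2 correlated with the same markers at r = 0.60 (permutation p = 0.041, adjusted 0.367; rho = 0.76, permutation p = 0.0051, adjusted 0.154), and r was 0.56 without the 2 mice farthest from its median. For Acaa2 r was 0.64 (permutation p = 0.021, adjusted 0.266; rho = 0.64, permutation p = 0.029, adjusted 0.320), and 0.36 without the 2 mice farthest from its median. Only 2 of the 6 measured choroid plexus markers were on average above an intensity of 100, and the part of that tissue in the correlations among Cpt1a, Cpt2 and Acaa2 was not tested. Over all 90 pairs of a gene and a marker list, 10 had an unadjusted permutation p under 0.05 for r and 0 passed adjustment.

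**Figure D3:**
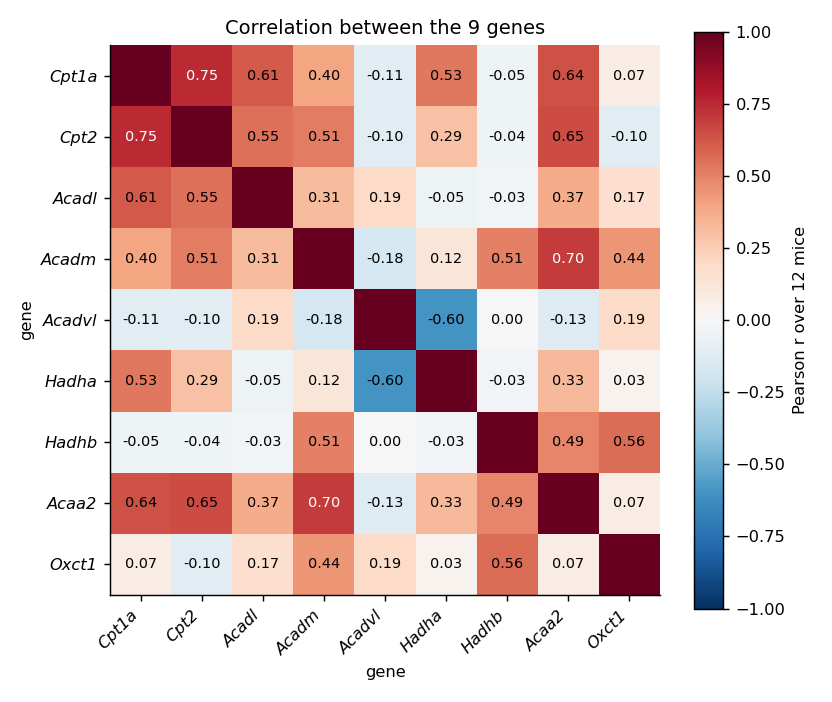
Pearson r over the 12 mice between each pair of the 9 genes (both axes), from blue (-1) to red (1). Cpt1a and Cpt2 have the highest r, 0.75, and Acadvl and Hadha the lowest, -0.60.

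Among 7097 other genes above an intensity of 100, those with the closest profile over the 12 arrays were, by Pearson r, Vcam1 (0.91) and Slc31a1 (0.90) for Cpt1a, and Lgals3bp (0.87) and Tmem176b (0.87) for Cpt2. Acadl was most like Znfx1 (0.85) and Smc1a (0.84), Acadm most like Gigyf2 (0.89) and Cct5 (0.89), and Acadvl most like Gm6334 (0.92) and Arf5 (0.85). Hadha was most like Nek9 (0.87) and Chpt1 (0.85), Hadhb most like Kpna1 (0.87) and Ctnnbl1 (0.86), and Acaa2 most like Rrs1 (0.91) and Lig3 (0.86). For Oxct1 they were Ppp1r3c (0.87) and Nmt2 (0.87). None of the 18 was another of the 9 genes. These are the highest correlations in a search over 12 arrays and are given as a description.

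Around the 9 enzymes, 73 genes of fatty acid uptake, the carnitine shuttle, beta-oxidation, ketone bodies, peroxisomes, regulators and PPAR targets were measured. None had an adjusted p under 0.05 in any comparison. At an unadjusted p under 0.05 stood 40 of 584 combinations of gene and comparison (6.85%), against 5.37% over all clusters. For the diet effect 2 of the 73 were higher and 4 lower, beside 2.66% and 2.30% of all clusters, and for the genotype effect 5 were higher and 1 lower, beside 2.92% and 3.55%. The values below are therefore descriptions of genes that did not pass the test over all clusters. Of the 73 genes, 35 were on average above an intensity of 100. Below it on average were Cd36, Dbi, Slc22a5, Acad9, Mlycd, Bdh1 and Bdh2. So were Oxct2a, Ppard, Rxra, Ppara, Plin4, Acot1 and Ucp3 among the genes named here.

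**Figure D4:**
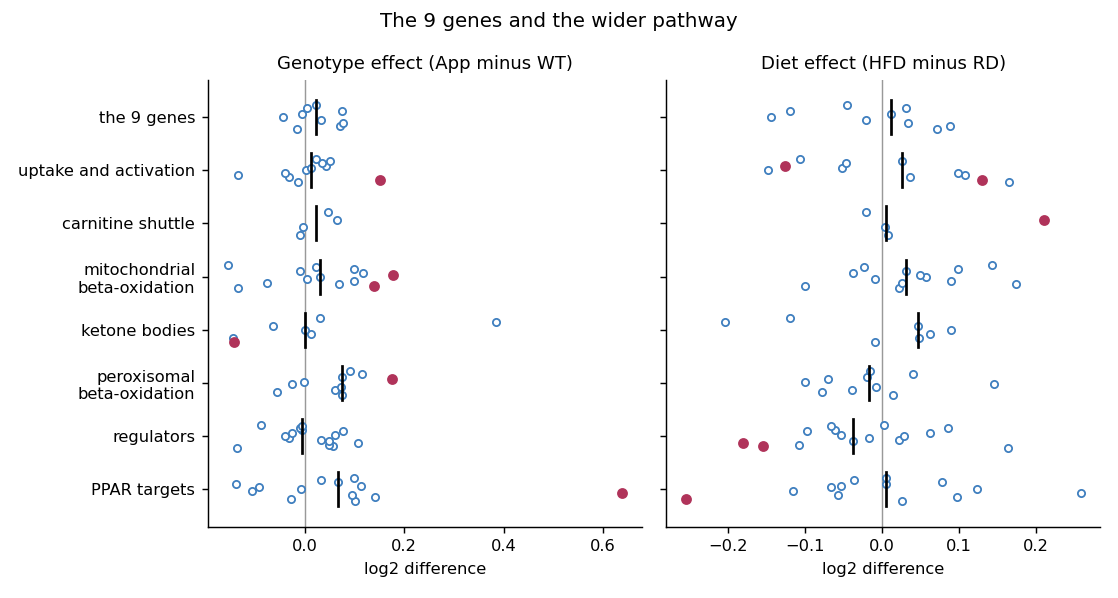
Log2 difference (horizontal axis) for the genotype and the diet effect of the 9 genes and of 73 genes around them, by list (vertical axis); points are genes, filled where the unadjusted limma p was under 0.05, and black bars are list medians. None of the 9 genes is filled, and the filled points are 6 for genotype and 6 for diet.

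Upstream of the mitochondrion, Slc27a1, a fatty acid transport protein, was lowest in WT RD mice. It read 7.87, 7.83 and 7.84 in WT RD, 7.9936, 7.9951 and 8.0241 in WT HFD, 8.02, 7.96 and 8.10 in App RD and 8.23, 8.09 and 8.07 in App HFD mice, so that every other mouse lay above the 3 WT RD mice. App HFD minus WT RD mice was 0.28 (SE 0.071, limma adjusted p = 0.664). Its genotype effect was 0.15 (SE 0.050, adjusted p = 0.675) and its diet effect 0.13 (SE 0.050, adjusted p = 0.991). Acsl5, an acyl-CoA synthetase, had a diet effect of -0.13 (SE 0.050, adjusted p = 0.991). Dbi, the acyl-CoA binding protein, was at -0.23 for HFD minus RD in WT mice (SE 0.072, adjusted p = 0.905), and Cd36, a fatty acid receptor with a very dim signal here, at 0.36 (SE 0.13, adjusted p = 0.921).

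In the carnitine shuttle, Slc22a5, the carnitine transporter, had a diet effect of 0.21 (SE 0.091, limma adjusted p = 0.995). Cpt1c, the brain form of CPT1, had differences between -0.014 and 0.013 in the 5 comparisons of groups, each with an SE of 0.088.

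Within beta-oxidation, Acad9, an acyl-CoA dehydrogenase known for its part in assembling respiratory complex I, read 6.45, 6.50 and 6.48 in WT RD, 6.33, 6.53 and 6.47 in WT HFD, 6.69, 6.71 and 6.6395 in App RD and 6.53, 6.55 and 6.47 in App HFD mice. The App RD mice were above all other mice, with a difference of 0.20 to WT RD mice (SE 0.072, limma adjusted p = 0.730) and an HFD minus RD of -0.16 (SE 0.072, adjusted p = 0.999). Eci2, an enoyl-CoA isomerase, had a genotype effect of 0.18 (SE 0.068, adjusted p = 0.750). Hadh, the short-chain hydroxyacyl-CoA dehydrogenase, was 0.19 higher in App HFD than in WT RD mice (SE 0.073, adjusted p = 0.908), with no overlap. Mlycd, whose product breaks down malonyl-CoA, the inhibitor of CPT1, was at -0.35 for App minus WT mice on the RD (SE 0.14, adjusted p = 0.775), with overlap. In peroxisomes, Abcd2, a very long-chain fatty acid transporter, had a genotype effect of 0.18 (SE 0.065, adjusted p = 0.734).

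Of the genes next to Oxct1 in ketone metabolism, Acat1, which splits acetoacetyl-CoA after OXCT1 has made it, had a diet effect of 0.062 (SE 0.049, 95% interval -0.047 to 0.17, limma adjusted p = 1.0). Bdh1, the mitochondrial beta-hydroxybutyrate dehydrogenase, had a genotype effect of -0.14 (SE 0.050, adjusted p = 0.694). Bdh2, a cytosolic dehydrogenase, read 4.76, 4.87 and 4.55 in WT RD, 5.05, 4.94 and 5.14 in WT HFD, 4.76, 4.96 and 4.83 in App RD and 4.55, 4.75 and 4.59 in App HFD mice. On the HFD it was therefore above every RD value in WT mice and below every RD value in App mice, with an interaction of -0.54 (SE 0.15, limma adjusted p = 0.970), at a signal below an intensity of 100. Oxct2a, the testis form of OXCT1, was near the floor of the array (2.31 to 4.25 over the 12 mice).

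Among the regulators, Ppard, which encodes the nuclear receptor PPAR delta, was lower on the HFD in both genotypes. It read 6.60, 6.66 and 6.58 in WT RD and 6.72, 6.68 and 6.85 in App RD mice, against 6.54, 6.53 and 6.55 in WT HFD and 6.51, 6.49 and 6.56 in App HFD mice. All 6 HFD-fed mice lay below all 6 RD-fed mice, which 0.106% of all clusters did in that direction. HFD minus RD of Ppard was -0.075 in WT mice (SE 0.069, 95% interval -0.23 to 0.077, limma adjusted p = 0.997). In App mice it was -0.23 (SE 0.069, 95% interval -0.39 to -0.081, limma adjusted p = 0.999). The diet effect was -0.15 (SE 0.048, 95% interval -0.26 to -0.047, limma adjusted p = 0.937). The exact permutation p within genotypes was 0.005, the smallest possible. That exact p was not adjusted over all clusters, and the gene was 1 of 73 looked at. On average over the 12 mice, the signal of Ppard was below an intensity of 100. Rxra, its dimerisation partner, had a diet effect of -0.18 (SE 0.073, adjusted p = 0.995). Ppara, the receptor that drives fatty acid oxidation in liver, was at -0.28 for App minus WT mice on the RD (SE 0.12, adjusted p = 0.792) and at 0.31 for HFD minus RD in App mice (SE 0.12, adjusted p = 0.999), at a signal below an intensity of 100.

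Of the PPAR targets outside the enzymes, Plin4, a lipid droplet coat protein, had the largest genotype effect of the 73, 0.64 (SE 0.20, limma adjusted p = 0.620). It read 5.49, 5.81 and 5.64 in WT RD, 5.28, 5.70 and 5.93 in WT HFD, 6.42, 5.75 and 5.87 in App RD and 6.60, 7.08 and 5.96 in App HFD mice. The App HFD mice lay above all 6 WT mice but spread over more than 1 log2 unit. Only the second App HFD mouse (7.08) was above an intensity of 100 for Plin4, and every other mouse of the 4 groups was below it. Acot1, an acyl-CoA thioesterase, was at -0.26 for HFD minus RD in WT mice (SE 0.096, limma adjusted p = 0.937). In App mice HFD minus RD of Acot1 was 0.12 (SE 0.096, limma adjusted p = 0.999). App minus WT mice on the RD stood at -0.28 for it (SE 0.096, limma adjusted p = 0.710). Ucp3, an uncoupling protein, was at -0.47 for HFD minus RD in WT mice (SE 0.15, limma adjusted p = 0.918). Pdk4, the kinase that turns pyruvate oxidation off when fatty acids are burned, had a diet effect of 0.027 (SE 0.12, adjusted p = 1.0). The microglial markers given above were lowest in WT RD mice, and their part in the values of these 73 genes was not tested.

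**Figure D5:**
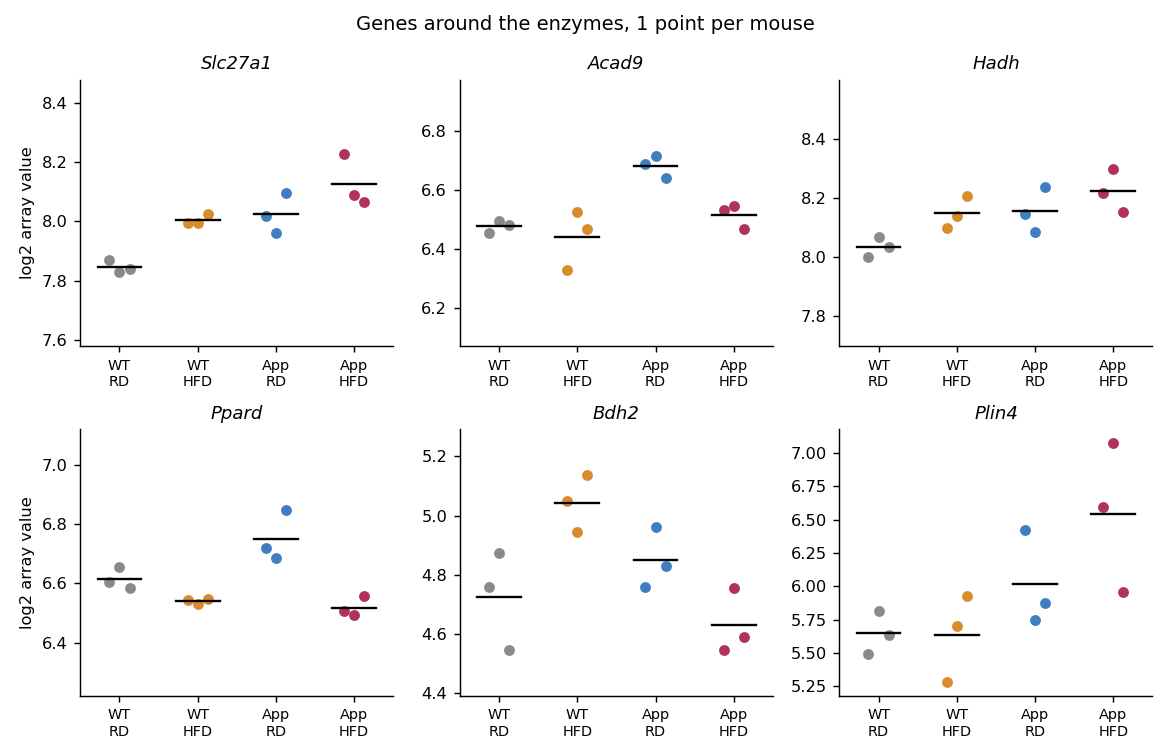
Log2 array value (vertical axis) of 6 genes around the enzymes in each mouse, by group (horizontal axis); points are mice and black lines group means, and panels span 0.9 log2 units except Plin4, which spans 2. All HFD-fed mice lie below all RD-fed mice for Ppard, and Bdh2 lies in opposite directions on the HFD in the 2 genotypes. Acad9, Ppard, Bdh2 and Plin4 were on average below an intensity of 100.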

How the data were processed

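The 12 arrays, 3 mice in each of 4 groups, were grouped by their labels. The authors processed the scans in Transcriptome Analysis Console and deposited log2 values for 41345 transcript clusters. How background, summarisation and normalization were handled, and on which genome build, is not given in the sources used. The values entered the fit as deposited. Smaller differences can be lost or made by that unknown scaling, so 2 other scalings were tried. The number of arrays limits the precision.

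Gene names came from the platform annotation, and only the 23521 clusters with 1 gene symbol, for 22180 genes, were named. The 9 genes and all gene lists were chosen with earlier results of these data known. One mean per group was estimated for every cluster in limma 3.58.1 (lmFit, eBayes; R 4.3.3), with Benjamini-Hochberg adjustment over all 41345 clusters. The fit was tested on simulated data. Exact permutation tests were 2-sided, over 20 assignments for 3 against 3 mice and over 400 within the strata of the other factor, as an alternative added after seeing the data where they were run over all clusters. Correlations had 100000 permutations.

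Named beside the 9 genes were the listed genes with an unadjusted p under 0.05 in any comparison, 7 genes set by name, and the 2 genes most like each of the 9. Of 81 listed pathway genes 73 were measured, and 8 were not analysed here. The promoter of Acaa2 was not analysed here either. Alternatives were median centring, quantile normalization, a filter on dim clusters, trended and robust moderation, fits of only the groups compared, the mean of all clusters of a gene, a replicate block, and leaving out each array. Same-numbered WT RD and WT HFD mice deviated together (r = 0.331, 0.124 and 0.109), so these were also fitted as pairs. That reading comes from the data and not from the labels, and it held for no other 2 groups. Among WT RD and WT HFD mice of different number, the second WT RD and the third WT HFD mouse correlated at 0.185. The third WT RD and the second WT HFD mouse correlated at 0.063, and the remaining pairs were below 0 (-0.254 to -0.137).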

Additional observations from a re-analysis of the deposited data

Results flagged for a closer look

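The diet differences of Bdh2, a cytosolic dehydrogenase listed beside Oxct1, pointed in opposite directions in the mice of the 2 genotypes. All 3 WT HFD mice lay above all 3 WT RD mice (difference 0.32, SE 0.10), and all 3 App HFD mice lay below all 3 App RD mice (difference -0.22, SE 0.10). The difference of the diet effects was -0.5379 on the log2 scale (95% interval -0.87 to -0.21, limma adjusted p over all clusters = 0.970). It did not pass adjustment. Its unadjusted limma p was 0.0044, and 4.97% of all clusters had one under 0.05. The WT RD and WT HFD mice did not overlap, in either direction, in 10.3% of all clusters. For the App RD and App HFD mice that share was 9.62%. The signal of Bdh2 was below an intensity of 100.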

How the results depend on the processing

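For the 9 genes, 458 of 462 differences recomputed under the alternatives other than leaving out an array moved by less than the SD within groups and 4 moved more, all 4 of Oxct1. None of the 462 had an unadjusted p under 0.05 (smallest 0.0767), and 0 had an adjusted p under 0.05. Leaving out each array in turn, 4 of 864 differences had an unadjusted p under 0.05 and 0 an adjusted one. The count of genes with an unadjusted p under 0.05 then ranged from 0 to 1 in 4 comparisons. These were App against WT mice on the RD (Cpt2, 0.28 without the first App RD mouse), HFD against RD in WT mice (Cpt2, 0.27 without the first WT HFD mouse), and, without the first WT RD mouse, App HFD against WT RD mice (Acadvl, -0.28) and the diet effect (Acadvl, -0.19), all by limma. An exact permutation test within genotypes, added after seeing the data, called 1 of the 9 for the diet effect at an unadjusted p under 0.05 in place of 0. That gene was Oxct1, with p between 0.005 and 0.02 over 2 other scalings and the removal of each array. These settings reuse the same mice and are not independent of each other. With the values as deposited its exact p was 0.010, which was as small in 1.19% of all clusters. Adjusted over all clusters it was 0.844, so it did not pass.

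With only clusters above an intensity of 100, 6 of the 9 genes and 35 of the 73 pathway genes were left in the fit. Pathway genes with an unadjusted p under 0.05 then numbered 2 of 35 in place of 7 of 73 for App against WT mice on the RD. They numbered 3 of 35 in place of 6 of 73 both for HFD against RD in WT mice and for the diet effect. For HFD against RD in App mice the count was 1 of 35 in place of 4 of 73, and for the interaction 1 of 35 in place of 3 of 73. The genes counted also became fewer, so a lower count is not by itself a lower share. The share over all clusters left in that fit is not given here. With the replicate number as a block, 0 of the 9 genes were called in any comparison, as without it. Mice of the same number had deviations correlated at r = -0.090 to 0.331, over 0.1 in 7 of 18 pairs, against 7 of 36 pairs of different number. All 3 same-numbered pairs of WT RD and WT HFD mice were among the 7 (0.109 to 0.331). The second WT RD and the third WT HFD mouse, of different number, reached 0.185. A limma fit of the 6 WT arrays alone with the number as a block was added after seeing the data. It called 0 of the 9 genes (adjusted p from 0.886 to 0.999, with 0 at an unadjusted p under 0.05). With group means subtracted, 27 of 36 pairs of the 9 genes correlated above 0, against 25. Each of the 9 genes has 1 cluster, so averaging clusters changed nothing.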
